A study of Mus musculus with 7 samples.

Results

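The genes described here are the interleukins and interleukin receptors outside the core interleukin-1 family. Within this family the members were taken by symbol, as every gene whose symbol starts with Il and a number in the array's probe annotation, leaving out Il1a, Il1b, Il1rn, Il1r1, Il1r2, Il1rap, Il1rl1, Il18 and Il33. The rule found 69 of the 19938 genes that had a probe set of their own, and all 69 were measured on all 7 arrays. They were 33 cytokines, 33 receptor chains or receptor-like proteins, 2 soluble binding proteins (Il18bp and Il22ra2) and 1 antisense RNA (Il1bos). Il22 itself had probe sets only with another symbol beside its own and was not analysed here. The common gamma chain Il2rg and the IL-11 receptor chains had no probe set of their own and were not analysed either.

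Total RNA from intestine of mice lacking Atg4b, a protease that processes the autophagy protein LC3, and of wild-type (WT) mice was hybridised to Affymetrix arrays. All mice were of the mixed C57Bl6/129Sv strain and 3 months old. Untreated controls gave 1 WT and 1 Atg4b knock-out (KO) array of ileum and 1 of each genotype of colon. Oral dextran sulfate sodium (DSS), a polymer that injures the colonic epithelium and is used to induce colitis, was given for 7 days with a return to water for the last 3 days, and gave 3 colon arrays, 2 labelled KO and 1 labelled WT. Whether the arrays came from separate animals is not stated in the labels, so p-values below measure only the spread between these arrays, and 5 of the 6 groups held 1 array.

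Interleukins are secreted proteins by which immune, epithelial and stromal cells signal to each other. Most bind a private receptor chain paired with a shared one: the common gamma chain for the IL-2 group, the common beta chain for IL-3 and IL-5, and gp130 (Il6st) for IL-6 and IL-11, all of which act through Jak kinases and Stat factors. IL-17 receptors and the receptors for IL-18 and IL-36 signal instead toward NF-kB, and in the gut both routes act on epithelial defence and on the recruitment of leukocytes.

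Values are log2 probe-set intensities, and a difference of 1 on this scale is 1 doubling. The lower quartile of all genes lay between 5.71 and 5.87 on the 7 arrays. Of the 69 genes, 39 lay above it on every array, 12 on some and 18 on none, and these 18 included 13 of 33 cytokines and 4 of 33 receptors. Where a probe set is under the lower quartile in a group, the size of a log2 difference from it is uncertain. For genes called or among the largest differences of a comparison, the value with an offset of 50 added before the logarithm is given where it is over 1.5 times smaller. Other differences from such probe sets, such as those of Il18rap and Il12a between DSS and control colon, are given without it. By comparison, 21.1% of all genes and 26.1% of these 69 were under the lower quartile on every array. The dim group held Il2, Il3, Il4, Il5, Il10, Il20, Il21, Il23a, Il24 and the IL-36 relatives Il1f5, Il1f6, Il1f8 and Il1f10, so a flat value for one of these says little about its transcript. The 10 with the highest mean log2 intensity were Il13ra1, Il22ra1, Il10rb, Il17rc, Il6st, Il4ra, Il18bp, Il15ra, Il3ra and Il17re, which describes these probe sets and not the amounts of their transcripts. Among these 10, Il4ra spanned 1.93 log2 units over the 7 arrays and Il13ra1, the X-linked chain that pairs with Il4ra for IL-13, spanned 0.37.

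The targeted gene matched its labels, with Atg4b at 7.35 to 7.72 on the WT arrays and 5.39 to 5.45 on the KO arrays. The labels give the WT control and KO DSS arrays as female and the KO control and WT DSS arrays as male, so labelled sex and genotype cannot be told apart within any condition. The sex-linked genes did not follow the labelled sex on the 3 WT arrays, and they gave KO and WT arrays of 1 condition the same pattern. Xist lay at 5.19 to 5.52 on the 4 control arrays and at 12.16 to 12.55 on the 3 DSS arrays, and the Y-linked Eif2s3y at 9.39 to 9.77 and 4.28 to 4.39, so DSS treatment and this sex pattern cannot be told apart. Of the 69 genes 4 are X-linked (Il13ra1, Il13ra2, Il1rapl1 and Il1rapl2), and none of them passed the threshold in any comparison. The tissue labels matched their markers, since 9 of 9 ileal enterocyte genes were higher and 7 of 7 colonocyte genes lower in control ileum than in control colon.

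DSS-treated colon held more Il6, Il1f9, Il5ra, Il4ra, Il11, Il18bp, Il10ra, Il2rb, Il15ra, Il21r and Il17ra than control colon and less Il15, Il22ra2 and Il7. These 14 of 69 genes (20.3%) passed an adjusted p of 0.05 in limma's moderated test with Benjamini-Hochberg adjustment over all genes, in 3 DSS against 2 control arrays, beside 10.6% of all genes tested. The 11 that rose were 15.9% of the list against 7.2% of all genes, and the 3 that fell were 4.35% against 3.43%. On quantile-normalised values 11 rose and 6 fell. Without the WT or without the KO control colon array 1 control was left. The call of Il4ra alone held there, and most calls over all genes were lost too. Without the WT DSS array 5 of the 69 passed, beside 526 of all genes, and without the second KO DSS array 9, beside 800. The main fit called 2120 of all 19938 genes. Receptor chains made up 7 of the 11 that rose, with 3 cytokines and 1 binding protein. The median difference of the 69 was 0.07 log2, against -0.01 over all genes. The DSS and control arrays did not overlap for 24 genes with DSS higher (34.8% against 22.1% of all genes) and for 11 with DSS lower (15.9% against 18% of all genes).

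**Figure D1:**
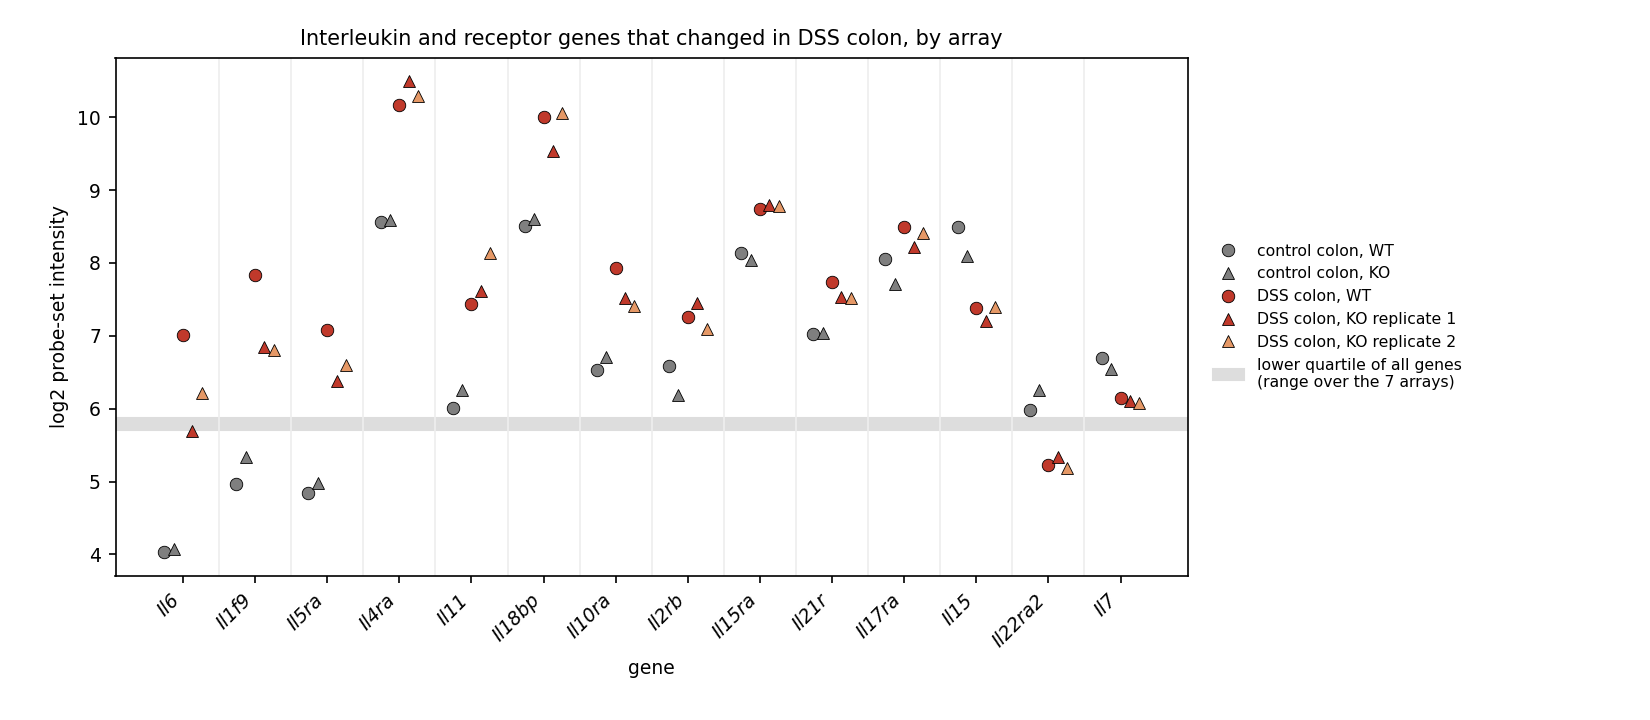
Log2 probe-set intensity (vertical axis) of the 14 genes that passed the threshold in DSS colon, with 1 symbol for each of the 5 colon arrays; circles are WT, triangles are KO, and the grey band is the lower quartile of all genes over the arrays. Il6 sits at 4.03 and 4.08 in control colon and at 5.69 to 7.01 in DSS colon, and Il15 at 8.10 and 8.49 in controls and 7.21 to 7.39 in DSS.

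Of the 4 gp130-related cytokines Il6 and Il11 rose. Il6, the main inducer of the acute phase response, was at 4.03 in WT and 4.08 in KO control colon, and at 7.01 in WT and 5.69 and 6.22 in KO DSS colon. All 3 DSS arrays lay above both controls, the WT array highest, and only the WT array and 1 KO array rose past the lower quartile. The difference was 2.32 ± 0.31 log2 (SE, adjusted p = 0.00891), from control values under the lower quartile. Il11, which stromal cells release during epithelial repair, was at 6.01 in WT and 6.25 in KO control colon, and at 7.43 in WT and 7.62 and 8.14 in KO DSS colon. Here both KO arrays were above the WT array, and no DSS array overlapped the controls (1.57 ± 0.21, adjusted p = 0.00907). The IL-6 receptor chain Il6ra (-0.32) and the shared signal chain Il6st (0.13) did not pass. No IL-11 receptor chain was among the 69 genes. The related cytokines Il27 (-0.08) and Il31 (-0.41) did not pass either. Without the WT or without the KO control colon array neither call held, with Il6 at 2.04 and 2.65 and Il11 at 1.53 and 1.61. With the offset of 50 the Il6 difference was 1.02 and missed the threshold (adjusted p = 0.0523).

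Among the IL-36 cytokines, which keratinocytes and gut epithelium release on injury, Il1f9 (IL-36 gamma) alone passed. It was at 4.96 in WT and 5.33 in KO control colon, and at 7.84 in WT and 6.85 and 6.81 in KO DSS colon, a difference of 2.07 ± 0.30 (adjusted p = 0.0114). The control values were under the lower quartile and all 3 DSS values above it, the WT array being about 1 log2 unit over the KO pair. Its receptor Il1rl2 was at 7.55 and 6.94 in control and 6.58, 6.06 and 6.41 in DSS colon, in the order WT then KO, without overlap but short of the threshold (-0.87 ± 0.25, adjusted p = 0.0781). The agonists Il1f6 and Il1f8 and the antagonist Il1f5 differed by 0.01, 0.10 and less than 0.01 and were dim on every array. With the offset of 50 the Il1f9 difference was 1.23 and still passed (adjusted p = 0.0445). The Il1f9 call did not hold without the WT (1.64) or the KO control colon array (2.59).

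Of the 7 receptors of the common gamma chain group, which leave out the common chain Il2rg itself, 4 rose. Il21r among them was not called after median centring, nor were Il2rb and Il21r with all probe sets tested. Il2rb was also not called with the offset of 50 (0.61). Il4ra, the shared signal chain of IL-4 and IL-13, was at 8.57 in WT and 8.59 in KO control colon and at 10.17 in WT and 10.49 and 10.29 in KO DSS colon. The groups lay far apart relative to their spread, and the difference of 1.71 ± 0.12 had the smallest adjusted p of the 69 genes (0.00128). Il4ra was also the only one of the 14 that passed with each of the 7 arrays left out in turn, at 1.60 to 1.80. Its ligands Il4 (0.16) and Il13 (-0.13) did not pass, and neither did the partner chain Il13ra1 (0.06). Genes known to respond to IL-4 and IL-13 passed in 1 of 11 cases, the macrophage lectin Chil3 (1.16 ± 0.28).

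The other risers of this group were smaller. Il2rb, the signal chain for IL-2 and IL-15, was at 6.59 in WT and 6.19 in KO control colon and at 7.26 in WT and 7.45 and 7.09 in KO DSS colon (0.88 ± 0.19, adjusted p = 0.0376). Il15ra, which presents IL-15 to neighbouring cells, was at 8.14 and 8.04 in controls and at 8.74 in WT and 8.79 on both KO DSS arrays (0.69 ± 0.10, adjusted p = 0.0110). Il21r, the IL-21 receptor of lymphocytes, was at 7.03 and 7.04 in controls and at 7.73, 7.54 and 7.51 in DSS (0.56 ± 0.12, adjusted p = 0.0346). In each of these genes every DSS array was above both controls. Il2ra, the high-affinity IL-2 receptor chain of activated and regulatory T cells, was at 6.59 and 6.60 in controls and spread from 7.01 and 7.46 in KO to 8.12 in WT DSS colon. It missed the threshold in spite of separate groups (0.95 ± 0.37, adjusted p = 0.167). Il7r (0.32) and Il9r (-0.20) did not pass. Without the WT control array the values were 1.13 for Il2rb, 0.74 for Il15ra and 0.54 for Il21r, without the KO control array 0.57, 0.62 and 0.59, and without the WT DSS array 0.89, 0.74 and 0.44, and none of these passed. Il2rb and Il21r were also lost without the second KO DSS array, at 0.97 and 0.60.

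Of the 6 common gamma chain cytokines 2 fell. Il15, which sustains NK and intraepithelial lymphocytes, was at 8.49 in WT and 8.10 in KO control colon and at 7.38 in WT and 7.21 and 7.39 in KO DSS colon. It fell by 0.95 ± 0.14 (adjusted p = 0.0142), while its receptor chains Il15ra and Il2rb rose. Il7, an epithelial and stromal survival factor for lymphocytes, was at 6.69 and 6.55 in controls and at 6.14, 6.11 and 6.08 in DSS and fell by 0.51 ± 0.10 (adjusted p = 0.0308). For both genes every DSS array lay below both controls. Il2 (0.02), Il4 and Il21 (-0.26) were dim on every array, and Il9 differed by 0.07. Il7 was not called with all probe sets tested. Il15 was not called without the WT control array (-0.76), the KO control array (-1.17) or the WT DSS array (-0.93). Il7 was lost in 6 of the 7 such fits, at -0.59 to -0.44 in those 6. The 2 of these without an ileum array are the same fit as colon arrays alone (-0.50). With the offset of 50 the Il7 difference was -0.31.

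Il5ra, the IL-5 receptor chain of eosinophils and some B cells, rose from below the lower quartile to above it. It was at 4.84 in WT and 4.99 in KO control colon and at 7.07 in WT and 6.38 and 6.60 in KO DSS colon (1.79 ± 0.20, adjusted p = 0.00535). The lowest DSS array was over 1 log2 unit above the highest control. Its ligand Il5 was dim throughout and differed by -0.02, and of 6 eosinophil markers none passed, with summed intensities of 333 and 396 in control and 331 to 375 in DSS colon. In the same group Il3 was dim (0.02) and Il3ra differed by 0.16, whereas the beta chain genes Csf2rb and Csf2rb2 rose by 1.73 ± 0.19 and 1.40 ± 0.15. With the offset of 50 the Il5ra difference was 0.96 (adjusted p = 0.0268). The call of Il5ra did not hold without the WT (1.60) or the KO control colon array (2.02).

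Of the IL-10 and IL-22 receptors 1 rose and 1 fell. Il10ra, the IL-10 receptor chain of leukocytes, was at 6.53 in WT and 6.71 in KO control colon and at 7.93 in WT and 7.52 and 7.41 in KO DSS colon (1.00 ± 0.20, adjusted p = 0.0286). Il10ra was not called with the offset of 50 (0.74) or with all probe sets tested. Its partner Il10rb, which epithelium carries as well, differed by 0.07, and Il10 was dim (0.21). Il22ra2, the soluble IL-22 binding protein that blocks IL-22, was at 5.98 and 6.26 in controls and at 5.23, 5.34 and 5.18 in DSS, where all 3 values were under the lower quartile. It fell by 0.87 ± 0.13 (adjusted p = 0.0118), and by 0.45 with the offset of 50 (adjusted p = 0.0316). Il22ra1, the epithelial IL-22 receptor, differed by 0.02. Targets of IL-22 and IL-6 in epithelium rose in 6 of 12 cases, led by Reg3g (4.84 ± 1.17), Saa3 (4.77 ± 0.20), Socs3 (2.80 ± 0.17) and Hp (2.21 ± 0.44). Neither Il10ra nor Il22ra2 passed without the WT control (0.87 and -1.02), the KO control (1.17 and -0.70) or the WT DSS array (0.71 and -0.89), and Il10ra also failed without the second KO DSS array (1.11).

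In the IL-18 and IL-12 groups the antagonist moved and the receptors did not pass. Il18bp, the secreted inhibitor of IL-18, was at 8.51 in WT and 8.60 in KO control colon and at 9.997 in WT and 9.54 and 10.06 in KO DSS colon (1.33 ± 0.18, adjusted p = 0.00985). All 3 DSS arrays were clearly above both controls. Il18r1 differed by 0.25 and Il18rap, its accessory chain, by 0.65 ± 0.23. Il12a, a subunit of IL-12 and IL-35, was at 5.68 and 5.93 in controls and at 6.89, 6.46 and 5.95 in DSS (0.67 ± 0.25, not called), with 1 KO DSS array barely above the controls. Il12b (0.10), Il23a (0.24) and their receptor chains Il12rb1 (0.38), Il12rb2 (0.30) and Il23r (-0.06) did not pass. The Il18bp call was lost without the WT control (1.18), the KO control (1.53) or the WT DSS array (1.30).

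In the IL-17 family 1 of 11 genes passed. Il17ra, the chain shared by the family's receptors, was at 8.05 in WT and 7.71 in KO control colon and at 8.49 in WT and 8.22 and 8.41 in KO DSS colon (0.52 ± 0.12, adjusted p = 0.0449). The groups did not overlap, but the lowest DSS value was close to the higher control, and the call held in 1 of the 7 fits with an array left out, at 0.39 to 0.63 over the 7. The Il17ra call was also lost after median centring, with the offset of 50 and with a variance trend. It was lost as well with all probe sets tested and in colon arrays alone, which is the same fit as without either ileum array. Over these settings the differences were 0.44 to 0.54. Il17rc, the partner of Il17ra for IL-17A and IL-17F, differed by 0.17 and Il17re, the chain for the epithelial cytokine IL-17C, by -0.48 ± 0.17 (adjusted p = 0.124). Il17a (-0.07), Il17c (-0.10) and Il25 (-0.03) did not pass. Il17f was at 6.47 and 6.39 in controls and at 7.22 in WT and 6.54 and 6.50 in KO DSS colon (0.39 ± 0.16, not called), so the WT array alone stood clear of the controls. The genes of IL-17 signalling and its targets rose in 9 of 14 cases, led by Lcn2 (3.56 ± 0.28), Duoxa2 (3.32 ± 0.53), Duox2 (2.71 ± 0.41) and the neutrophil chemokine Cxcl5 (2.70 ± 0.55), and several of these also respond to IL-22 and to bacteria.

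**Figure D2:**
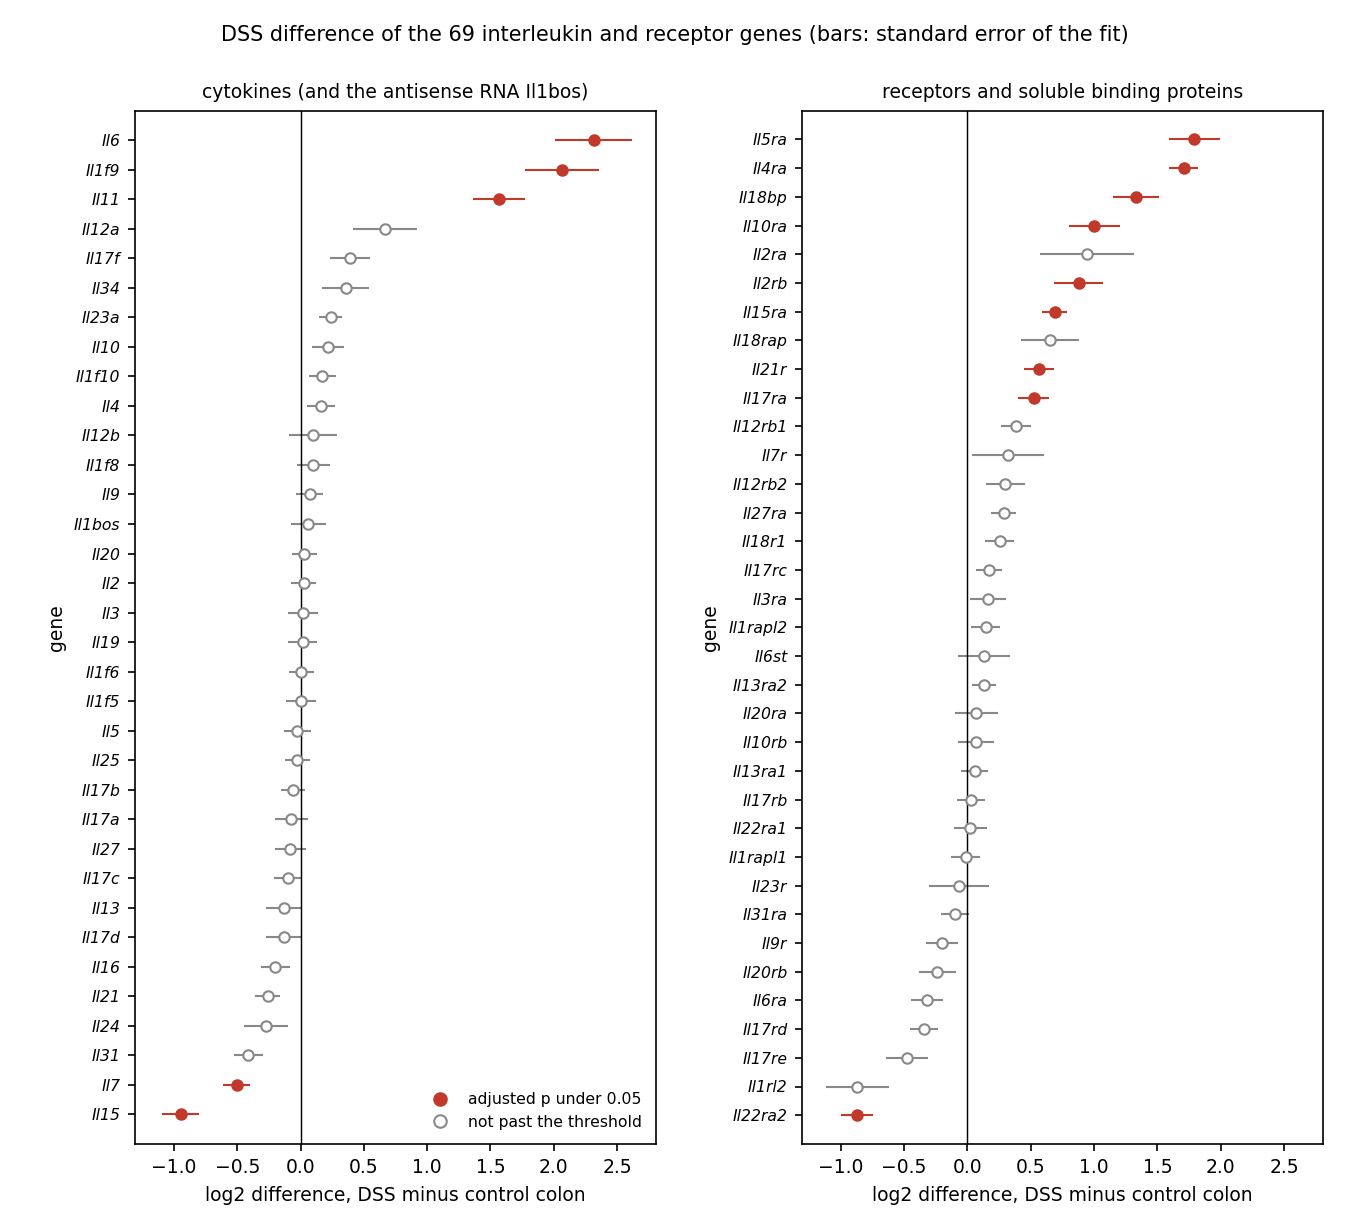
Log2 difference between DSS and control colon (horizontal axis) of all 69 genes with the standard error of the fit as a bar, cytokines and receptors in separate panels; red points passed an adjusted p of 0.05. Differences run from -0.95 (Il15) to 2.32 (Il6), and most lie close to 0, with a median of 0.07.

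Other genes of the same pathways, from lists of receptors, kinases and inhibitors, moved as follows in DSS colon. Of 9 Jak and Stat genes 3 rose, Stat2 (2.00 ± 0.12), Stat4 (1.11 ± 0.20) and Stat3 (0.54 ± 0.12), the last being the factor that gp130 and IL-10 receptors activate. Of 13 inhibitors and early Stat targets 4 rose and 1 fell: the feedback inhibitors Socs3 and Socs1 (1.75 ± 0.11), the kinase Pim1 (1.43 ± 0.12) and Bcl3 (1.29 ± 0.18) were higher, and Socs2 fell by 1.67 ± 0.26. Of 10 partner cytokines without an Il name 2 rose, the gp130 cytokines Osm (1.23 ± 0.19) and Lif (0.66 ± 0.15). Of 10 partner receptors 4 rose, among them Osmr (1.79 ± 0.21) and Csf3r (1.75 ± 0.19), and Lifr fell by 1.20 ± 0.17.

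Cell type markers moved in the same arrays, and in whole tissue fewer cells of a type and less RNA per cell cannot be told apart. In DSS colon 10 of 14 neutrophil genes rose, with summed intensities of 6417 and 6475 in controls, 8216 and 10065 in KO and 12017 in WT DSS colon. A sum is weighted to the brightest genes. The mean log2 intensity of the 14 was 5.98 in WT and 6.16 in KO controls, and 7.90 in WT and 7.37 and 7.83 in KO DSS colon. Of 11 macrophage genes 5 rose, summing to 3341 and 4021 in controls and 5542 to 6190 in DSS. Of 7 colonocyte genes 3 fell (46335 and 49992 against 23557 to 31225), and of 11 smooth muscle genes 2 fell (33487 and 34552 against 7571 to 22596). Among T and NK cells 0 of 14 genes passed, mast cells 1 of 10 and general gut epithelium 1 of 11. Of 10 B and plasma cell genes 2 passed, lower, while the median difference of the 10 was 0.47. None passed of 8 innate lymphoid and Th17, 9 tuft cell, 9 fibroblast, 7 endothelial, 6 adipocyte, 9 ileal enterocyte and 4 pancreatic genes. The part of these markers in the interleukin and receptor differences was not tested. Some lists share genes, so their counts overlap. S100a8 and S100a9 stand in the IL-17 and neutrophil lists, and Csf3r in the partner receptor and neutrophil lists. Socs3 stands among the IL-22 and IL-6 targets and among the inhibitors.

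Promoter sequence is shown for the 5 called genes with the largest log2 difference in DSS colon, all of them higher there, to set the sequences beside the values. Within DSS colon Il6, Il1f9 and Il5ra were highest on the WT array and Il4ra and Il11 on a KO array. With the offset of 50 Il18bp (1.23) had a larger difference than Il5ra, Il6 and Il11. Each is the 250 bases before the annotated start, 5′ to 3′ on the gene's strand, from RefSeq on build GRCm38.p6, which held such windows for 52 of the 69 genes. Capitals mark matches to letters that were searched on both strands and may overlap: STAT (TTCNNNGAA), AP-1 (TGANTCA), C/EBP (TTNNGNAA), the interferon-stimulated response element (ISRE) and the NF-kB consensus.
Il6, chr5:30012864-30013113, plus strand: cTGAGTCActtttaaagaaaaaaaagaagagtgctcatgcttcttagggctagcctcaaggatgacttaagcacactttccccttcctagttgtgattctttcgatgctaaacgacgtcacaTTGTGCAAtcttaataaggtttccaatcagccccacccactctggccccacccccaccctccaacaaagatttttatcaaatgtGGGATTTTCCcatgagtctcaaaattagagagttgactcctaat
Il1f9, chr2:24186226-24186475, plus strand: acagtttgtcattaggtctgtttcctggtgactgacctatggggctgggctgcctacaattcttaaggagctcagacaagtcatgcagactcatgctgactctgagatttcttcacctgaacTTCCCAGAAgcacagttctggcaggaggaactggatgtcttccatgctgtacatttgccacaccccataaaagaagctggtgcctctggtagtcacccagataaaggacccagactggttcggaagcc
Il5ra, chr6:106749038-106749287, minus strand: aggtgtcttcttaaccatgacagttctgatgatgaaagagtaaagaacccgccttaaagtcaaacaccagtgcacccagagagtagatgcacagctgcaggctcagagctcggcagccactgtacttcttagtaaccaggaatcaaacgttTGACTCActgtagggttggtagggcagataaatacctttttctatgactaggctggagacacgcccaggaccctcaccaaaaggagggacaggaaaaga
Il4ra, chr7:125552021-125552270, plus strand: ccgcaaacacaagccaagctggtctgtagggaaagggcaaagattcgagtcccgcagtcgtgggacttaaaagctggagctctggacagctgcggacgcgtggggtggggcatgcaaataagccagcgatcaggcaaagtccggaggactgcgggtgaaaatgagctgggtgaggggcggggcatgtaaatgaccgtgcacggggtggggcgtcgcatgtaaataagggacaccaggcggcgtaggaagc
Il11, chr7:4778142-4778391, minus strand: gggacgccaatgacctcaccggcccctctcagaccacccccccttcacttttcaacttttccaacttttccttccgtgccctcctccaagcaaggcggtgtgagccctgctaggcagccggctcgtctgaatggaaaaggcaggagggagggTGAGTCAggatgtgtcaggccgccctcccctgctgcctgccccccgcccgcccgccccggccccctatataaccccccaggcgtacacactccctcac
The Il6 window held an AP-1 match at 249 to 243, a C/EBP match at 128 to 121 and an NF-kB match at 44 to 35 bases before the start. Il1f9 held a STAT match at 128 to 120, Il5ra an AP-1 match at 99 to 93 and Il11 an AP-1 match at 98 to 92, whereas a second annotated start of Il11 (chr7:4782858-4783107) and the Il4ra window held none. Counted per gene with a match in any of its windows, AP-1 matched in 4 of the 8 risers with a window, C/EBP in 3, STAT and NF-kB in 1 each and ISRE in 0, against 8, 22, 7, 3 and 2 of the other 44 genes. Counted the same way over all 27025 genes with windows, the shares were 7.82% for AP-1, 40.3% for C/EBP, 8.13% for STAT, 4.46% for NF-kB and 3.46% for ISRE, and over the 32851 single windows 6.75%, 36.8%, 7.02%, 3.90% and 2.98%. A match describes letters only, and binding of a factor was not measured.

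Between control ileum and control colon (2 arrays each, WT and KO), 7 of 69 genes passed (10.1%, against 9.16% of all genes tested), so the list differed about as often as any gene. All 7 are receptor chains. With any of these ileum or colon arrays left out, 1 array was left in a tissue. Fewer genes passed then, both of the 69 and of all genes. Il4ra, Il18r1, Il22ra1, Il2rb, Il17rb and Il17rc were higher in ileum (8.7% of the list against 5.94% of all genes) and Il17re was higher in colon (1.45% against 3.22%). The 2 ileum arrays lay above both colon arrays for 15 genes (21.7% against 25.8%) and below them for 27 (39.1% against 28.2%).

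Il4ra was at 9.63 in WT and 9.86 in KO ileum and at 8.57 and 8.59 in colon (1.17 ± 0.12, adjusted p = 0.00269). It was again the only gene that passed with each array left out. Il22ra1 was at 12.00 in WT and 11.89 in KO ileum and at 11.19 and 10.77 in colon (0.96 ± 0.14, adjusted p = 0.00907), and its second probe set ordered the arrays the same way, at 10.27 and 10.26 in ileum, above both of its colon values. Il18r1, the ligand-binding IL-18 receptor, was at 6.14 and 6.47 in ileum and at 5.19 and 5.46, under the lower quartile, in colon (0.98 ± 0.12, adjusted p = 0.00464, and 0.52 with the offset of 50). Il2rb was at 7.16 and 7.54 in ileum against 6.59 and 6.19 in colon (0.96 ± 0.21, adjusted p = 0.0380). These 4 genes separated the tissues without overlap. Il2rb was not called with the offset of 50 or with all probe sets tested. Il22ra1 was lost without the KO ileum (0.88) or KO colon array (0.82), Il18r1 without the KO ileum (0.89) or WT colon array (0.94), and Il2rb without any array but the first KO DSS array, at 0.68 to 1.24.

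The IL-17 receptors pointed in both directions. Il17rb, the receptor chain for the tuft cell cytokine IL-25, was at 7.28 in WT and 7.11 in KO ileum and at 6.73 and 6.43 in colon (0.62 ± 0.12, adjusted p = 0.0260). Il17rc was at 10.96 and 10.76 in ileum and at 10.55 and 10.23 in colon (0.47 ± 0.11, adjusted p = 0.0476). Il17re was at 7.91 and 7.72 in ileum and at 9.06 and 8.44 in colon (-0.93 ± 0.18, adjusted p = 0.0254), with a wide gap between the colon arrays. Their ligands Il25 (0.02), Il17a (-0.17), Il17f (-0.16) and Il17c (-0.35) and the shared Il17ra (0.15) did not pass. Leaving out an array ended the call of Il17rb for either ileum or colon array (0.52 to 0.72), of Il17re for either ileum array or the WT colon array (-0.95 to -0.64), and of Il17rc for all arrays but the first KO DSS array (0.40 to 0.54). With all probe sets tested Il17rb, Il17rc and Il17re were not called. Il17rc was also lost after quantile normalisation or median centring, and Il17re with the offset of 50. Il7r, the IL-7 receptor of lymphocytes, had the largest difference of any of the 69 but varied between ileum arrays, at 7.05 in WT and 8.10 in KO ileum against 6.57 and 6.21 in colon (1.19 ± 0.31, adjusted p = 0.0707). Lower in ileum without passing were Il1rl2 (-0.81 ± 0.27), the macrophage growth factor Il34 (-0.57 ± 0.20), Il9r (-0.47) and Il31 (-0.40).

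**Figure D3:**
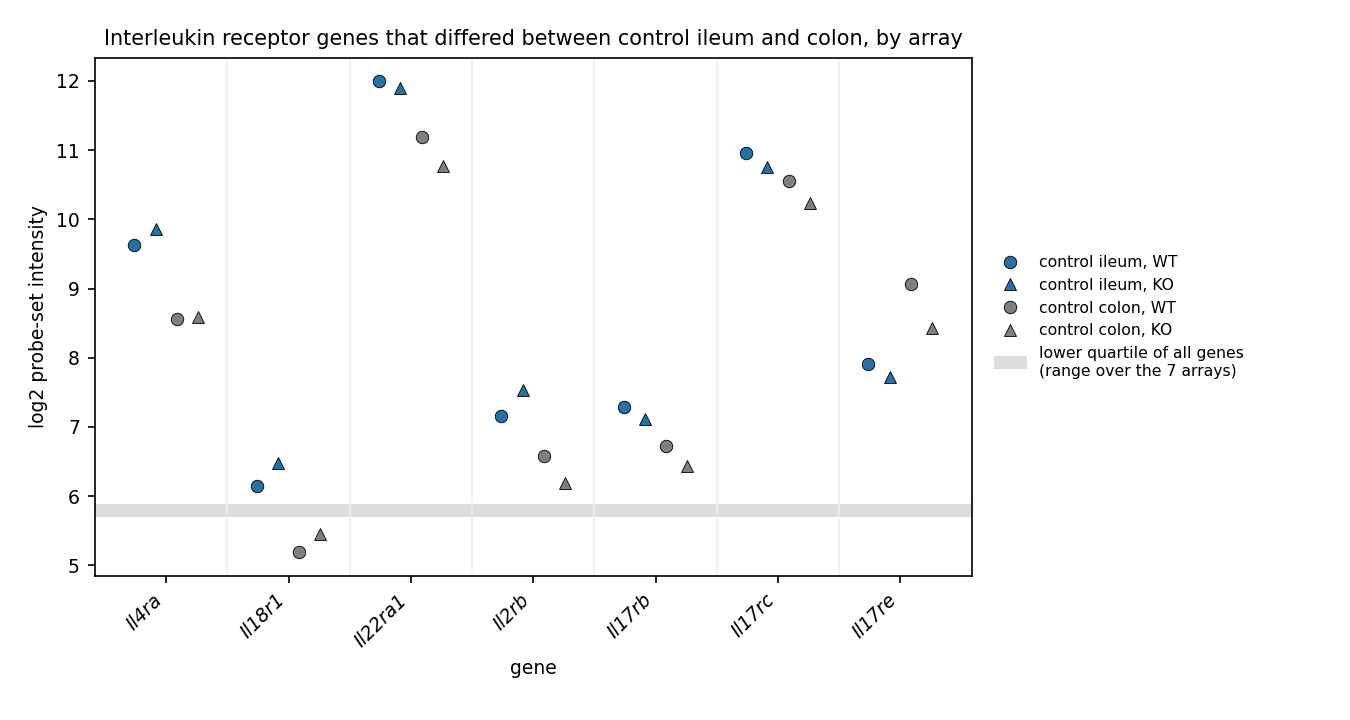
Log2 probe-set intensity (vertical axis) of the 7 receptor genes that differed between control ileum (blue) and control colon (grey), with circles for WT and triangles for KO arrays and a grey band at the lower quartile of all genes. Il4ra sits at 9.63 and 9.86 in ileum and 8.57 and 8.59 in colon, and Il17re is the only one of the 7 that is higher in colon.

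The same tissues differed in their lymphocyte markers. Ileum held higher levels of 6 of 14 markers of T and NK cells, summing to 2784 and 3352 in ileum and 1177 and 1191 in colon. Among 10 markers of B and plasma cells 4 were higher in ileum and 1 in colon, and their median difference was -0.30. Of 11 macrophage genes 4 were higher in ileum, of 11 general epithelial genes 4, and of 6 adipocyte genes 3. Single genes passed for tuft cells, for innate lymphoid and Th17 cells and, lower in ileum, for neutrophils, and none did for mast cells, eosinophils, fibroblasts, smooth muscle, endothelium or pancreas. Their part in the receptor differences was not tested. Of the pathway lists, 3 of 9 Jak and Stat genes, 1 of 13 inhibitors, 1 of 14 IL-17 genes and 3 of 12 IL-22 and IL-6 targets were higher in ileum. In the other direction 1 of the 12 IL-22 and IL-6 targets and 1 of 11 IL-4 and IL-13 targets were lower, the partner receptors had 1 each way, and of the 10 partner cytokines 0 passed.

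Loss of Atg4b was compared over all conditions with 4 KO and 3 WT arrays, and none of the 69 genes passed in limma (0 of 69, against 0.00502% of all genes, which is 1 gene). At an unadjusted p of 0.05 there were 2 genes (2.9%, against 3.61% of all genes), Il17f (-0.39 ± 0.13) and Il17rc (-0.22 ± 0.08), and the smallest adjusted p of the list was 0.989. Differences ran from -0.39 to 0.47, the upper end being Il23r (0.47 ± 0.20), the receptor chain of Th17 and innate lymphoid cells. Il23r was at 5.68 in WT and 6.42 in KO ileum, at 5.01 and 5.88 in control colon, and at 5.49 in WT and 5.63 and 5.26 in KO DSS colon. With the offset of 50 the Il23r difference was 0.24. The KO array was the higher in both control tissues, and in DSS colon the KO arrays lay on either side of the WT array. Il6st (0.31), Il7r (0.23), Il18r1 (0.21, and 0.11 with the offset) and Il3ra (0.20) followed on the higher side and Il6 (-0.38), Il1f9 (-0.30) and Il22ra1 (-0.22) on the lower. The KO and WT arrays did not overlap for 3 genes with KO higher, namely Il3ra, Il13ra1 (0.17) and the dim Il1f5 (0.16), which is 4.35% against 0.752% of all genes, and for 0 genes with KO lower, against 0.757%. Il17f was lower in KO than in WT in ileum (6.13 against 6.40), in control colon (6.39 against 6.47) and in DSS colon (6.54 and 6.50 against 7.22). Leaving out any 1 array gave no call.

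Within DSS colon the 2 KO arrays were compared with the single WT array, in a fit over all 7. That fit matches the lone WT DSS array exactly and leaves 2 residual degrees of freedom. The spread thus comes from the other arrays and holds none between WT DSS arrays. No gene of the list and none of all genes (0%) passed after adjustment. At an unadjusted p of 0.05 there were 9 of the 69 (13%, against 3.89% of all genes), 8 lower in KO (11.6% against 1.51%) and 1 higher (1.45% against 2.38%). The 8 were Il6 (-1.05 ± 0.24), Il1f9 (-1.01 ± 0.18), Il2ra (-0.88 ± 0.31), Il17f (-0.70 ± 0.16), Il12a (-0.68 ± 0.24), Il18rap (-0.62 ± 0.19), Il5ra (-0.59 ± 0.17) and Il10ra (-0.47 ± 0.16), and Il3ra was the higher one (0.44 ± 0.17). The smallest adjusted p was 0.887, for Il1f9, and with the offset of 50 Il6 was at -0.67 and Il12a at -0.44. Of these 8 genes Il6, Il1f9, Il5ra and Il10ra are also among those that rose with DSS, and both comparisons use the same WT DSS array, so they are not independent. Il6st (0.54 ± 0.27), Il11 (0.45 ± 0.26), Il4ra (0.22) and Il17d (0.17) had the largest remaining differences on the higher side.

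The 8 genes lower in KO share the single high WT array. Il18rap, the IL-18 receptor accessory chain, was at 6.50 in WT and 5.85 and 5.92 in KO DSS colon, and Il2ra, Il12a and Il17f were likewise highest on the WT array, as given above. Il3ra, the IL-3 receptor chain, was at 8.11 in WT and 8.67 and 8.43 in KO. In control colon the KO minus WT differences of the 8 ran from -0.08 (Il17f) to 0.43 (Il18rap), with Il2ra at 0.01 and Il6 at 0.05. In control ileum they ran from -0.27 (Il17f) to 0.86 (Il2ra). Both control tissues enter the difference of differences given below. The lower quartile of all genes was itself higher on the KO (5.87) than on the WT control colon array (5.77). The median (7.26 against 7.34) and the upper quartile (8.70 against 8.90) were lower on that KO array. How often other genes lay higher on that KO array was not counted. The KO difference in DSS colon minus that in control tissue had 9 genes at an unadjusted p of 0.05 (13%, against 3.2% of all genes), all negative (1.4% of all genes). These were Il2ra (-1.32 ± 0.40), Il1f9 (-1.18), Il6 (-1.13), Il23r (-0.85), Il18rap (-0.84), Il12a (-0.80), Il10ra (-0.74), Il5ra (-0.74) and Il17f (-0.53), and none passed after adjustment. With the offset of 50 Il6 was at -0.69, Il18rap at -0.47 and Il23r at -0.43. The positive end held Il17re (0.48), Il11 (0.43), Il3ra (0.40), Il6st (0.38) and Il17d (0.21).

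**Figure D4:**
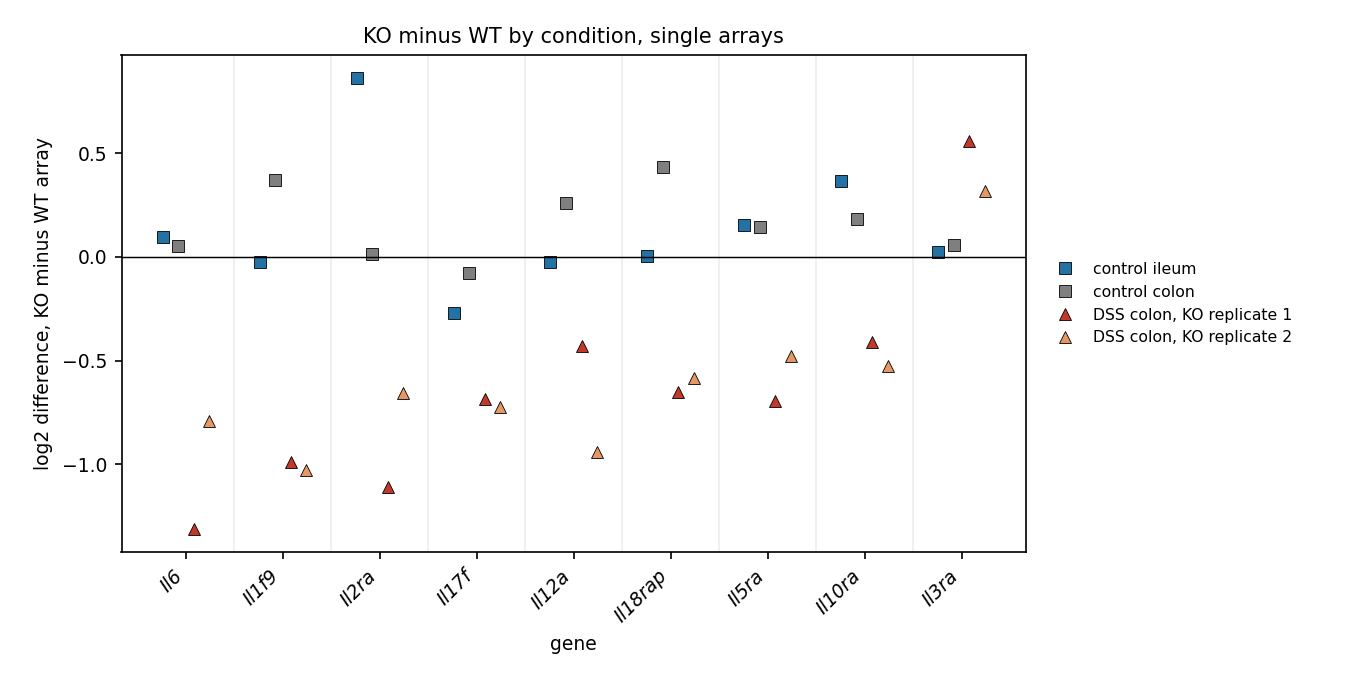
Log2 difference of KO from WT arrays (vertical axis) in ileum, control colon and DSS colon (each KO DSS array against the 1 WT DSS array) for the 9 genes with an unadjusted p under 0.05 in DSS colon, chosen after their values were seen. For Il6 both KO DSS arrays (5.69 and 6.22) lie below the WT DSS array (7.01), and in the control tissues the 2 genotypes are close.

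These differences rest on 1 WT DSS array, and the KO DSS arrays differed from it in other ways. Summed smooth muscle intensity was 7571 in WT and 22596 and 11598 in KO DSS colon, and summed neutrophil intensity was 12017 in WT and 8216 and 10065 in KO. The mean log2 intensity of the neutrophil genes was 7.90 in WT and 7.37 and 7.83 in KO. Their part in the KO differences was not tested. No list of pathway or cell type genes held a gene that passed in the KO comparisons. Without the second KO DSS array Il6 (-1.31, adjusted p = 0.00792) and Il1f9 (-0.99, adjusted p = 0.0464) passed in DSS colon and Il2ra (-1.55, adjusted p = 0.0473) and Il6 (-1.39, adjusted p = 0.0266) in the difference of differences, each as 1 array against 1 with the lone arrays assumed to vary like the others.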

How the data were processed

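RNA of ileum and colon was measured on 7 Affymetrix arrays. The authors deposited 1 linear intensity per probe set and array; the values lie between 10.4 and 22236.4 with array medians of 121.4 to 126.45, and the sources used here do not give their normalisation. Of 35512 probe sets 21789 carried 1 gene symbol in GEO's platform annotation, 1621 several and 12102 none. The log2 of the intensity was taken and the one-symbol probe set with the highest mean stood for each of 19938 genes; 999 genes, 3 of them described here, had more than 1 such probe set. limma 3.58.1 in R 4.3.3 was fitted over all genes and all 7 arrays with tissue and treatment (ileum, colon, DSS colon) and genotype as terms, and a second fit added the genotype by DSS term for the KO difference within DSS colon. Adjusted p is Benjamini-Hochberg over all genes, with a threshold of 0.05, and ± is the standard error of the fit. The number of arrays limits the precision.

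Genes named in each comparison are all those called, the largest others where under 5 were called in a direction, the 10 brightest, and the ligands or receptors of called genes; the 9 genes of the KO comparison in DSS colon and the promoter motifs were chosen after values were seen. The gene family, its symbol rule and the gene lists were chosen with earlier results of these data known. The alternatives were quantile normalisation, median centring, an offset of 50, a variance trend, the mean of probe sets, a filter on dim genes, all probe sets, colon arrays alone, and each array left out.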

Additional observations from a re-analysis of the deposited data

How the results depend on the processing

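In DSS against control colon, 14 genes passed; the count was 9 with all probe sets tested, 5 with genes under the median intensity left out (which tests 17 of the 69), and 1 to 15 with 1 array left out (lowest without either control colon array). Other settings gave 10 to 17. In ileum against colon, 7 genes passed; the count was 3 with all probe sets, 4 with dim genes left out, and 2 to 7 with 1 array left out (lowest without the KO ileum or the WT colon array). For KO against WT the count was 0 in every fit over all conditions, and 0 to 2 with 1 array left out both in DSS colon and for the difference of differences. With an array of the compared groups left out, fewer of all genes passed too, in DSS and in ileum against control colon. The exception was the first KO DSS array in the DSS comparison. Apart from the fits with fewer genes or arrays, the cause was not tested.

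Of 788 values of named genes under an alternative, 684 kept direction and side of the threshold, 89 lost the call, 9 gained one and 6 changed sign. Outside the ileum comparison, leaving out either ileum array gives the same fit as colon arrays alone, and each was counted. In KO against WT the sign changed for Il7r (-0.12 in colon arrays alone and without either ileum array, with 0.4844 without the WT control colon array as the other end), and, without the WT DSS array, for Il6 (0.0732, the other end being -0.5788) and Il1f9 (0.1729, the other end being -0.5859). In KO against WT DSS colon it changed for Il17d (-0.0174 without the first KO DSS array, 0.3664 without the second). None of these passed in any of these fits.

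Without the WT DSS array there was no fit of the KO difference within DSS colon, and colon arrays alone give no ileum comparison. No paired analysis was possible because the labels number only the 2 KO DSS arrays.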
